A study of Rattus norvegicus with 17 samples.

Results

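The endothelial and angiogenesis genes are 10 genes chosen by symbol: Nos3, Stc1, Vegfa, Kdr, Flt1, Pecam1, Cdh5, Tek, Angpt2 and Apln. Of these, 9 were listed among the 17251 genes of the table, and all 9 passed the filter of at least 1 TPM in at least 3 rats that left 13105 genes to test. Pecam1 was not analysed here. Their Entrez identifiers in the table are 24600 (Nos3), 81801 (Stc1), 83785 (Vegfa), 25589 (Kdr), 54251 (Flt1), 307618 (Cdh5), 89804 (Tek), 89805 (Angpt2) and 58812 (Apln). RNA was sequenced from the whole meibomian glands (MG) of 17 female rats aged 10 to 12 weeks, with 1 deposited column per rat. Control WT (4 rats) and UVB WT (3 rats) were wild-type rats, and Control P1.hMR (5 rats) and UVB P1.hMR (5 rats) carried human NR3C2, the mineralocorticoid receptor, under its proximal P1 promoter, on a Sprague-Dawley background. This promoter is active in all tissues that express the receptor, so the transgene was not limited to vessels or to the MG. The UVB groups had their eyelids irradiated on 5 days, and the Control groups were matched for age and sex and received no UVB. As a check of the labels, each WT rat was listed at 0 TPM for the human transcript, and P1.hMR rats held 5.31 to 9.31 TPM of it.

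Blood vessels grow and remodel under a few secreted signals. VEGF-A, made by epithelial and other tissue cells, binds VEGFR1 (Flt1) and VEGFR2 (Kdr) on endothelial cells, angiopoietins act through the receptor Tie2 (Tek), and apelin (Apln) is a peptide of sprouting endothelium. Endothelial cells are joined by VE-cadherin (Cdh5) and relax the vessel wall with nitric oxide from the endothelial nitric oxide synthase (Nos3), while stanniocalcin-1 (Stc1) is a secreted glycoprotein also made by stimulated endothelium. The question asked of the data was whether Nos3 moved with the vessel genes after UVB and in P1.hMR rats.

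Promoter sequences were taken from RefSeq for the assembly GRCr8 by gene symbol, whereas the authors' values rest on rn7. Of the 9 genes, 5 had an entry, and Stc1, Cdh5, Tek and Angpt2 had none. The 250 bases before the annotated start are printed for Nos3, for Kdr and Flt1, whose levels followed that of Nos3 most closely among the members, and for Vegfa, which moved the other way. Capitals mark the letters GGGCGG, the GC box, on either strand.
Nos3, chr4:11706582-11706831, minus strand: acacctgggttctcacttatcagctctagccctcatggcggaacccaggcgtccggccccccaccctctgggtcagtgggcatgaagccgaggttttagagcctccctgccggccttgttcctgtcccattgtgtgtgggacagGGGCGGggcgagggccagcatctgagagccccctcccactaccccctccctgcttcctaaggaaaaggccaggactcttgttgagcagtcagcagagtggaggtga
Kdr, chr14:32571813-32572062, plus strand: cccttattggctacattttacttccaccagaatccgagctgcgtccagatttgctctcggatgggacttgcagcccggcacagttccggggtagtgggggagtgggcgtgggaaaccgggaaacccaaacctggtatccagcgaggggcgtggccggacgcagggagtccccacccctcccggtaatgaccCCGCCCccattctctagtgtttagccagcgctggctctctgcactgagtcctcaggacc
Flt1, chr12:12333180-12333429, plus strand: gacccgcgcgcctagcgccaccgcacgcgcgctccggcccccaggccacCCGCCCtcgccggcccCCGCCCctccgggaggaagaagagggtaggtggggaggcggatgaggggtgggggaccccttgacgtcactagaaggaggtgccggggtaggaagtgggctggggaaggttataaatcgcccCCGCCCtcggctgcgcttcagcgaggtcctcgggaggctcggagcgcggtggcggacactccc
Vegfa, chr9:22452604-22452853, plus strand: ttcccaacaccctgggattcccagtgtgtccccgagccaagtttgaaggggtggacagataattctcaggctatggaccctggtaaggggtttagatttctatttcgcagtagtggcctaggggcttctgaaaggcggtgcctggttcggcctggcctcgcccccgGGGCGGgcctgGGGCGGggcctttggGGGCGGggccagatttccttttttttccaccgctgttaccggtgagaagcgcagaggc
The GC box stood once in the Nos3 and Kdr windows and 3 times in those of Flt1 and Vegfa, and 30.5% of 33469 rat promoters of the same length held it. The ETS core AGGAAG, searched on both strands, was found 1 time before Nos3 and 2 times before Flt1, against 29.5% of all promoters with at least 1, and was not found in these windows of Kdr and Vegfa. Neither ACGTG, the core of the hypoxia response element, nor AGAACA, a core of steroid receptor sites, was found in these 4 windows, and 16.6% and 17.5% of all promoters held them. Vegfa had another entry, chr9:22460028-22460277, plus strand, where AGAACA was found 1 time and the GC box was not found.

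In the unexposed gland, Vegfa stood far above the other members. TPM corrects for transcript length, so levels can be set beside each other. In Control WT rats, Vegfa lay at 34.96 ± 2.36 TPM (SD, n = 4), followed by Cdh5 at 12.9 ± 1.48 TPM, Tek at 7.06 ± 0.81 TPM and Flt1 at 5.14 ± 0.34 TPM, and the ranges of these 4 genes did not overlap. Kdr at 3.48 ± 0.37 TPM, Nos3 at 3.37 ± 0.37 TPM and Angpt2 at 2.93 ± 0.64 TPM overlapped each other. Stc1 at 1.39 ± 0.16 TPM and Apln at 0.84 ± 0.11 TPM were the lowest. In UVB P1.hMR rats, Nos3 at 5.64 ± 1.27 TPM (SD, n = 5) stood above Kdr at 4.54 ± 0.59 TPM in this order, although their ranges overlapped. Depth is unknown in a TPM table, so no counting error can be given for these low values.

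Nos3 and Stc1 were the members called after UVB, in both genotypes. The call was made in limma on log2(TPM + 1), which compresses changes of genes with few TPM, and required both an adjusted p (Benjamini-Hochberg) below 0.05 and a log2 fold change of 0.5 or more in size. In WT rats, 2 of 9 members were called, both higher, where 7.91% of all genes were called and 3.92% were called higher. In P1.hMR rats, 2 of 9 were called, the same 2 genes, where 10.8% of all genes were called and 5.05% were called higher. Averaged over genotypes, 2 of 9 were again called, with 9.48% of all genes called and 4.6% called higher. With no fold change threshold, 5 members passed in WT rats (21.5% of all genes), 5 in P1.hMR rats (39.1%) and 8 in the average over genotypes (47.2%). The median log2 fold change over the 9 members in that average was 0.28, beside -0.01 over all genes tested.

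**Figure D1:**
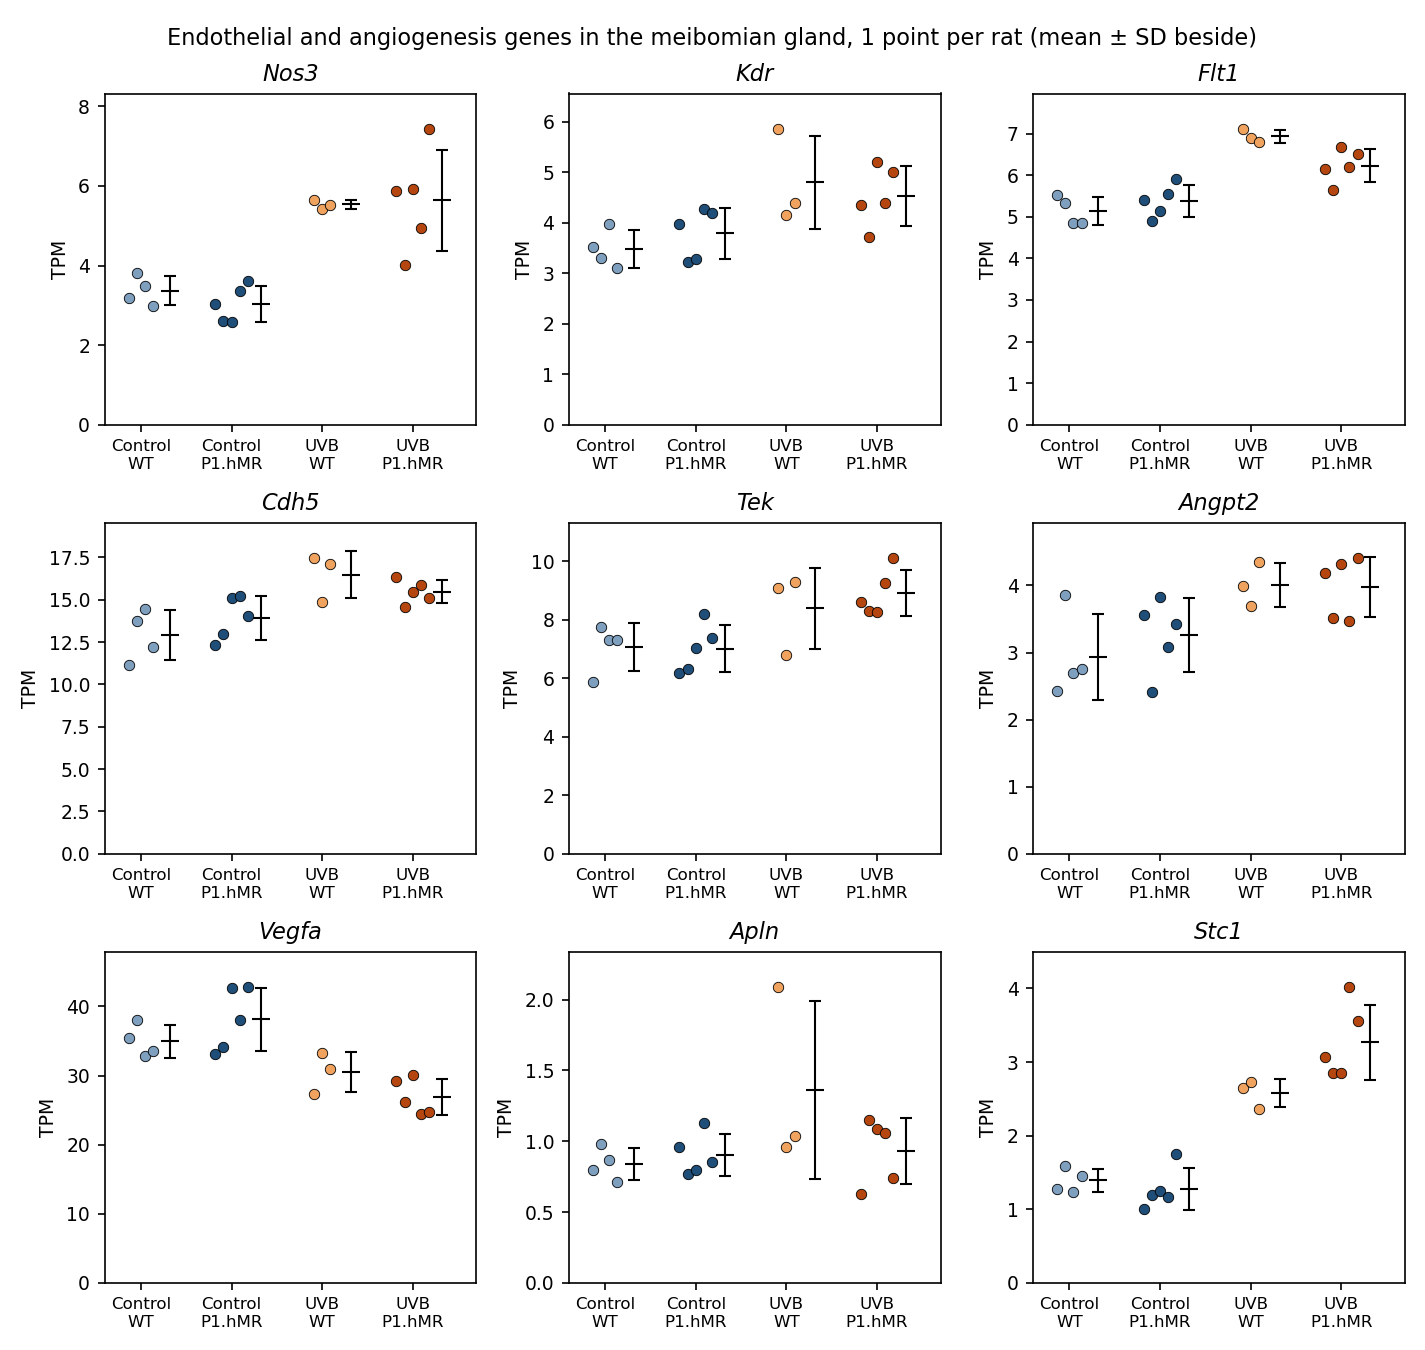
TPM of each gene (vertical axis from 0) in each of the 17 rats, by group, with the group mean and SD beside the points. Nos3 and Stc1 lay above every control rat in all 8 UVB rats, the vessel genes were higher by less and overlapped, and Vegfa lay below every control rat in 7 of 8 UVB rats.

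Nos3, the enzyme that makes nitric oxide in endothelium, rose after UVB. It stood at 3.19, 3.82, 3.49 and 2.98 TPM in Control WT rats 1 to 4 and at 5.65, 5.43 and 5.52 TPM in the 3 UVB WT rats. In the 5 Control P1.hMR rats it stood at 3.04, 2.6, 2.58, 3.37 and 3.6 TPM, and in the 5 UVB P1.hMR rats at 5.86, 4.02, 5.92, 4.95 and 7.43 TPM. All UVB rats lay above all control rats, and UVB P1.hMR rats spread from the lowest to the highest of the exposed values. The mean TPM of the 8 UVB rats was 1.76 times that of the 9 control rats. The log2 fold change was 0.58 (standard error 0.14, adjusted p = 0.00776 from limma) in WT and 0.70 (standard error 0.12, adjusted p = 0.000196) in P1.hMR rats. With hair keratin genes as a covariate, the WT value was 0.56 and was no longer called (adjusted p = 0.0641). Nos3 and Stc1 were not tested where a mean of at least 5 TPM was required.

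Stc1, the secreted glycoprotein, rose more than Nos3 on average. Its Control WT values were 1.28, 1.59, 1.24 and 1.45 TPM, and its UVB WT values were 2.65, 2.73 and 2.36 TPM. In Control P1.hMR rats it stood at 1.00, 1.19, 1.25, 1.17 and 1.75 TPM, and in UVB P1.hMR rats at 3.07, 2.85, 2.85, 4.02 and 3.56 TPM. The groups with and without UVB did not overlap. Every UVB P1.hMR rat lay above every UVB WT rat, but this difference was not called (adjusted p = 0.458 from limma). How many other genes part these 5 and 3 rats was not counted. The mean TPM after UVB was 2.27 times that of the controls. The log2 fold change was 0.58 (standard error 0.12, adjusted p = 0.00279 from limma) in WT and 0.91 (standard error 0.10, adjusted p = 5.21e-06) in P1.hMR rats. Over all 17 rats, Nos3 and Stc1 were the members without overlap between UVB and control, both higher, as were 5.51% of all genes.

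The VEGF receptors were higher after UVB by less than the fold threshold. Flt1, the decoy-like receptor VEGFR1, stood at 5.52, 5.34, 4.85 and 4.86 TPM in Control WT and at 7.11, 6.90 and 6.80 TPM in UVB WT rats. In P1.hMR rats it stood at 5.40, 4.90, 5.14, 5.55 and 5.90 TPM without UVB and at 6.14, 5.65, 6.67, 6.19 and 6.50 TPM with UVB. The WT groups were apart and the P1.hMR groups overlapped. The averaged log2 fold change was 0.28 (standard error 0.05, adjusted p = 0.000171 from limma). Kdr, the main signalling receptor VEGFR2, stood at 3.52, 3.30, 3.98 and 3.11 TPM in Control WT and at 5.86, 4.16 and 4.40 TPM in UVB WT rats. In P1.hMR rats Kdr stood at 3.98, 3.22, 3.29, 4.27 and 4.2 TPM without UVB and at 4.36, 3.72, 5.21, 4.39 and 5.00 TPM with UVB. The highest Kdr value belonged to UVB WT rat 1, and the averaged log2 fold change was 0.29 (standard error 0.08, adjusted p = 0.00694). Within genotypes Kdr was 0.37 in WT (adjusted p = 0.0407 from limma) and 0.21 in P1.hMR rats (adjusted p = 0.113).

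The endothelial junction and angiopoietin genes followed the same pattern. Cdh5, the junction protein VE-cadherin, ranged from 11.17 to 15.2 TPM in control and from 14.54 to 17.46 TPM in UVB rats, with an averaged log2 fold change of 0.24 (adjusted p = 0.00277 from limma). Tek, the angiopoietin receptor, ranged from 5.88 to 8.19 TPM in control and from 6.8 to 10.11 TPM in UVB rats, with 0.26 (adjusted p = 0.00817). Angpt2, its context-dependent ligand from endothelium, ranged from 2.41 to 3.86 TPM in control and from 3.47 to 4.41 TPM in UVB rats, with 0.29 (adjusted p = 0.00919). With hair keratin genes as a covariate Angpt2 was at 0.16 (adjusted p = 0.306), and Tek at 0.29 and Kdr at 0.30 also missed 0.05 (adjusted p = 0.0522 and 0.0627). Within genotypes and without that covariate, Cdh5 was 0.33 in WT (adjusted p = 0.0137 from limma) and 0.15 in P1.hMR rats (adjusted p = 0.129). Tek was 0.22 (adjusted p = 0.187) and 0.31 (adjusted p = 0.0161), and Angpt2 0.36 (adjusted p = 0.0585) and 0.23 (adjusted p = 0.103). Within WT rats, Nos3, Stc1, Kdr, Flt1 and Cdh5 had all UVB values above all control values, 5 of 9 members beside 14.0% of all genes. Within P1.hMR rats the same held for Nos3, Stc1 and Tek, 3 of 9 beside 13.2% of all genes.

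Vegfa, the ligand, was lower after UVB while its receptors were higher. It stood at 35.40, 38.09, 32.79 and 33.54 TPM in Control WT and at 27.37, 33.22 and 30.95 TPM in UVB WT rats. In P1.hMR rats it stood at 33.13, 34.20, 42.64, 37.98 and 42.82 TPM without UVB and at 29.20, 26.12, 30.12, 24.48 and 24.65 TPM with UVB. The P1.hMR groups were apart, as in 14.0% of all genes with UVB below control, and UVB WT rat 2 was the exposed rat that lay within the control range. The log2 fold change was -0.49 (standard error 0.08, adjusted p = 0.000264 from limma) in P1.hMR and -0.19 (standard error 0.10, adjusted p = 0.18) in WT rats. The P1.hMR value lay just short of the fold threshold, and Vegfa was called in 4 of 17 fits with 1 rat left out, those without Control P1.hMR rat 1 or 2 and without UVB P1.hMR rat 1 or 3, where it reached -0.53. It was also called with hair keratin genes as a covariate (-0.53, adjusted p = 0.000761).

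Apln, the sprouting peptide, stayed near 1 TPM in nearly all rats. It ranged from 0.71 to 1.13 TPM in control and from 0.63 to 2.09 TPM in UVB rats, the highest being UVB WT rat 1. The averaged log2 fold change was 0.18 (standard error 0.10, adjusted p = 0.146 from limma), and without that rat it was 0.070 (adjusted p = 0.506).

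**Figure D2:**
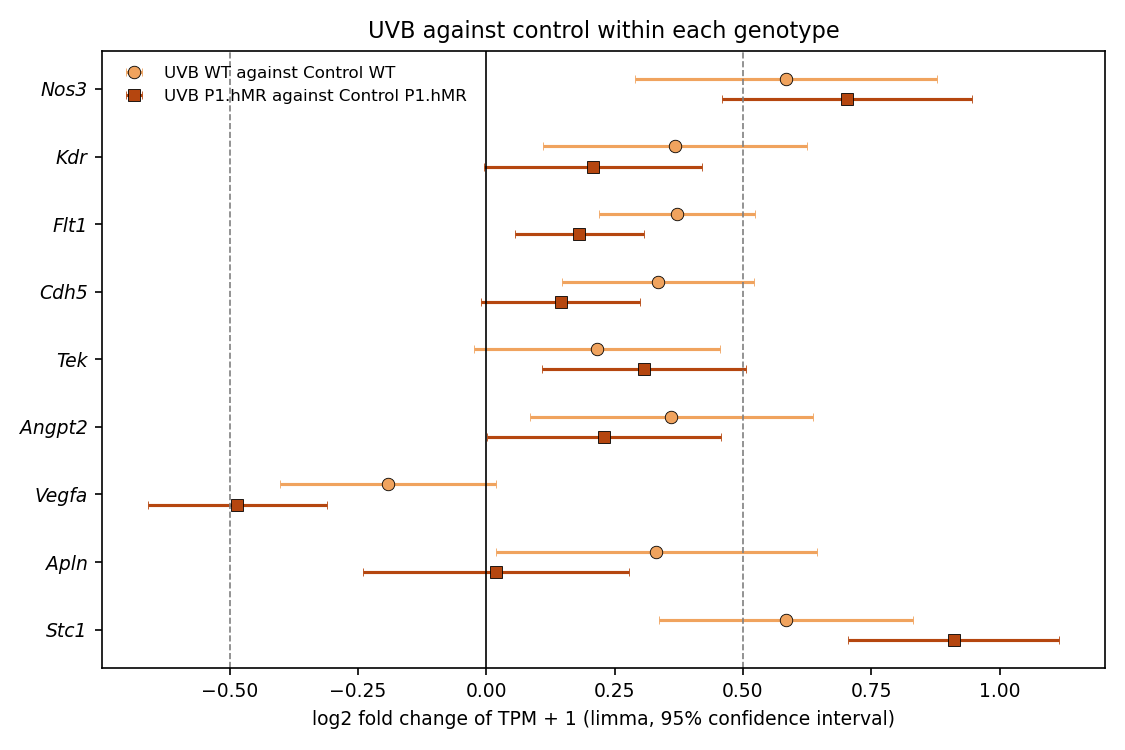
Log2 fold change of TPM + 1 after UVB with its 95% confidence interval from limma (horizontal axis) for each gene in WT (circles) and P1.hMR rats (squares), with dashed lines at the fold threshold of 0.5. Nos3 and Stc1 lie past 0.5 in both genotypes, and Vegfa is the gene below 0 in both.

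The genotype of the rat moved no member past the thresholds. Under UVB, P1.hMR against WT differences ran from -0.27 for Apln (-0.057 without UVB WT rat 1) to 0.25 for Stc1, with 0 of 9 members called by limma and 1 at an unadjusted p under 0.05, beside 0.0229% of all genes called. Without UVB they ran from -0.12 for Nos3 to 0.12 for Angpt2, with 0 called, 0 at an unadjusted p under 0.05, and 0.00763% of all genes called. For Nos3 the difference between genotypes under UVB was 0.00 (95% confidence interval -0.28 to 0.28), an interval that leaves room for changes of that size either way. For Stc1 under UVB it was 0.25 (95% confidence interval 0.01 to 0.49, adjusted p = 0.458 from limma). The interaction, which compares the UVB response of P1.hMR with that of WT rats, called 0 of 9 members and 0% of all genes, with unadjusted p under 0.05 for 2 members. These were Stc1 with 0.33 and Vegfa with -0.29 on the log2 scale (adjusted p = 0.711 from limma for each), and Nos3 had 0.12 (95% confidence interval -0.26 to 0.50). With 1 rat left out the Nos3 interaction ran from 0.027, without UVB P1.hMR rat 5, to 0.21, without UVB P1.hMR rat 2.

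To ask whether Nos3 followed the vessel genes, an endothelial index was taken as the mean log2(TPM + 1) of 22 pan-endothelial genes that hold no member. The index was itself higher after UVB, by 0.33 in WT rats (exact permutation, two-sided, p = 0.0571, the smallest that 3 against 4 rats allow) and by 0.22 in P1.hMR rats (exact p = 0.0159). Over both genotypes, with UVB labels permuted within genotype, the difference was 0.28 (exact p = 0.000454). In bulk tissue, fewer cells of a type and less RNA per cell cannot be told apart, so the index does not say whether vessels were more numerous. Nos3 rose by more than the index did. Nos3 minus the index was higher after UVB by 0.25 in WT rats (exact p = 0.0571, the smallest possible) and by 0.48 in P1.hMR rats (exact p = 0.00794, the smallest possible). Over both genotypes it was higher by 0.37 (exact p = 0.000227, the smallest possible), from -1.18 to -0.82 in the 9 control rats and from -0.77 to -0.33 in the 8 UVB rats, without overlap. With the median of the list as the index, Nos3 differed by 0.15 in WT (exact permutation p = 0.343), 0.33 in P1.hMR (exact p = 0.0159) and 0.24 in all rats (exact p = 0.00839). Of the 22 index genes, 1 had a larger averaged log2 fold change and a larger ratio of mean TPM than Nos3, namely Eng. Myct1 (0.63), Vwf (0.63) and Sox18 (0.62) stood close to Nos3 (0.64) in the averaged log2 fold change. None of the 22 had a larger ratio than Stc1.

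The ratio of Nos3 to single vessel genes shifted with it. Nos3 per Cdh5 was 0.26 ± 0.02 (SD, n = 4) in Control WT, 0.34 ± 0.02 (SD, n = 3) in UVB WT, 0.22 ± 0.03 (SD, n = 5) in Control P1.hMR and 0.36 ± 0.08 (SD, n = 5) in UVB P1.hMR rats. In 7 of 8 UVB rats this ratio was above all controls. The same held for Flt1 in 7, for Tek in 6 and for Kdr in 4 of 8 UVB rats. When the index entered the model as a covariate, the averaged UVB difference of Nos3 was 0.24 (95% confidence interval -0.00 to 0.49, adjusted p = 0.142 from limma) and was not called. Without UVB WT rat 2 it was 0.076 (adjusted p = 0.732). Within genotypes this was 0.38 (adjusted p = 0.0176) in P1.hMR and 0.10 (adjusted p = 0.731) in WT rats, and the interaction in this fit, 0.29 (95% confidence interval 0.00 to 0.57), did not pass (adjusted p = 0.904). Stc1 kept 0.68 (adjusted p = 0.00386) and was the 1 of 9 members called, beside 9.1% of all genes. Within genotypes Stc1 was 0.85 (adjusted p = 0.000476) in P1.hMR and 0.50 (adjusted p = 0.115, not called) in WT rats. The index and UVB move together, so this fit parts them only by the spread among rats of a group.

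**Figure D3:**
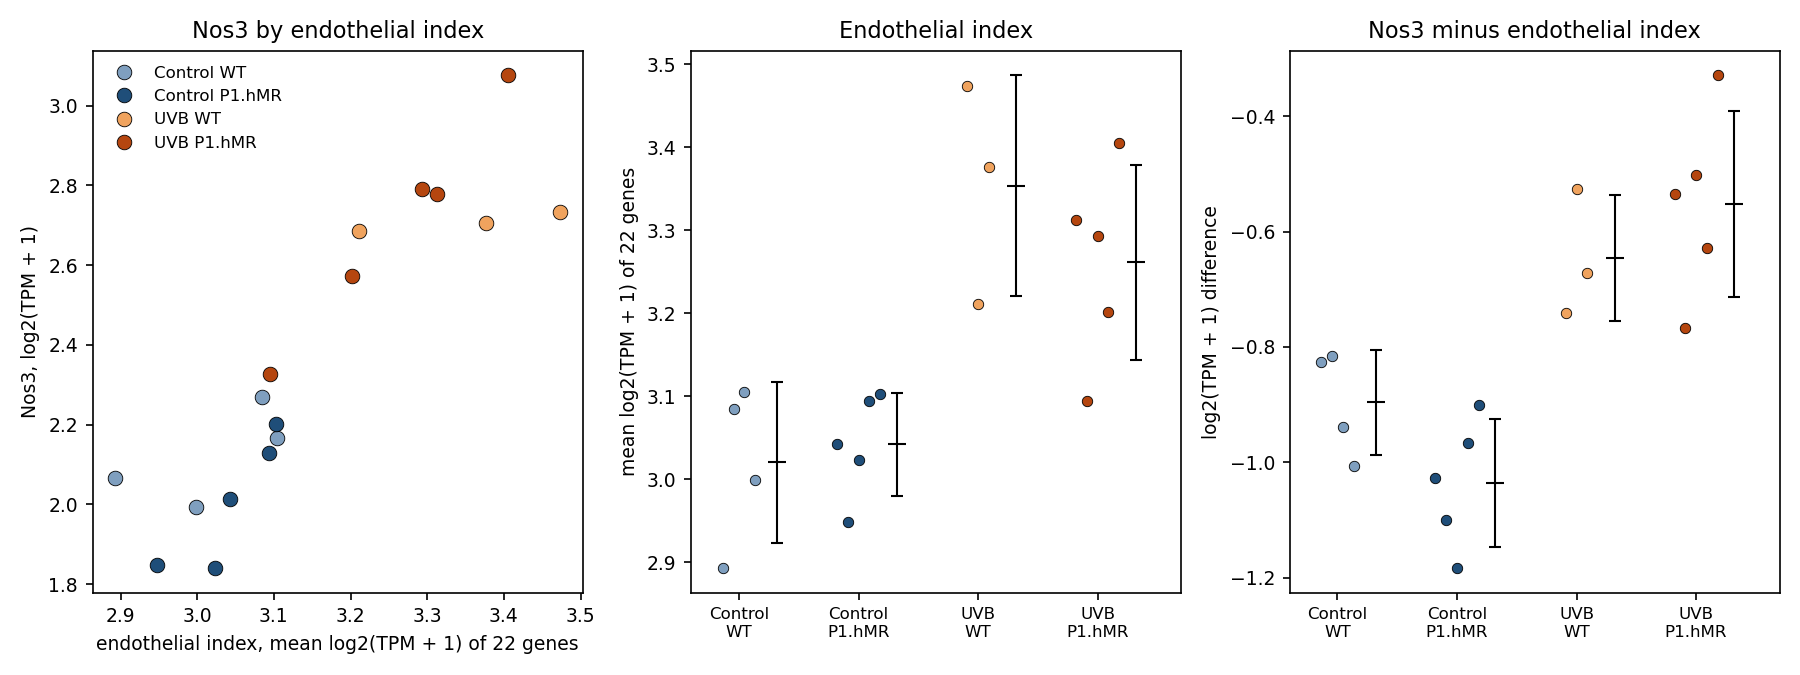
Left, Nos3 in log2(TPM + 1) against the endothelial index (mean log2(TPM + 1) of 22 genes), with 1 point per rat. Middle and right, the index and Nos3 minus the index by group, with mean and SD beside the points; in the right panel all UVB rats lie above all control rats.

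Among rats of like treatment, with both genotypes pooled, Nos3 tended to be higher where the index was higher, short of significance after adjustment. UVB parts the rats into separate clusters, so the relation was taken within control and within UVB rats, 2 relations in all. In the 9 control rats Pearson's r was 0.60 (exact permutation p = 0.10, also after adjustment over both relations) and Spearman's rho 0.67 (exact p = 0.0589), and without the 2 rats farthest from the median index r was 0.81 (exact p = 0.0345). In the 8 UVB rats r was 0.75 (exact permutation p = 0.0320, adjusted p = 0.0641) and rho 0.71 (exact p = 0.0576), and without the 2 farthest rats r was 0.76 (exact p = 0.05). Neither adjusted p passed 0.05. With the median of the list as the index, the relation in UVB rats was weaker, as given below. The UVB value rests in part on UVB P1.hMR rat 2, lowest in both measures, without which r was 0.52 (exact p = 0.234). Without UVB WT rat 2 or UVB P1.hMR rat 4, r was 0.77 (exact p = 0.0528) and 0.73 (exact p = 0.0762). Without Control WT rat 1, r in control rats was 0.86 (exact p = 0.00913).

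Nos3 was also set against every other gene within groups, after subtracting the group means. Of the members, Flt1 had r = 0.72 over the 17 rats, the 124th highest of 13104 genes, and Kdr r = 0.68, the 225th highest. Angpt2 followed with 0.52, Tek with 0.45, Stc1 with 0.31, Cdh5 with 0.27, Vegfa with 0.15 and Apln with -0.09. Among the members the order was led by the VEGF receptors and not by the junction gene Cdh5. Eng, the highest of the pan-endothelial list, stood above both receptors with r = 0.73, the 110th highest. That list spread widely, with Esam and Ushbp1 at 0.72, Myct1 at 0.05, Sox7 at 0.0027 and Emcn the lowest at -0.28. As a slope on Nos3 in limma, 0 genes passed after adjustment (smallest adjusted p = 0.177) and 1204 of 13104 had an unadjusted p under 0.05. The 4 genes of at least 5 TPM most like Nos3 were Selenoh, a nuclear selenoprotein (r = 0.87), Fam120b (0.86), the RNA-binding protein gene Khsrp (0.85) and the centrosomal gene Sfi1 (0.85). These are descriptions over 17 rats that share their libraries with the members.

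Other vascular genes were taken from lists, with counts in the average over genotypes, where 4.6% of all genes were called higher and 4.88% lower. Of 22 pan-endothelial genes, 6 were called higher, 0 lower, and the median log2 fold change was 0.27. Of the 22, 18 lay above 0, beside 48.6% of all genes, so the list did not rise as a whole. Emcn, Ushbp1 and Sox7 were lower, with a mean TPM after UVB of 0.80, 0.87 and 0.87 times that of the controls. In 6, 5 and 3 of the 8 UVB rats they lay below all control rats. The 4 with the largest change were Eng, the endothelial TGF-beta co-receptor endoglin (0.83), Myct1 (0.63), Vwf, the von Willebrand factor (0.63) and the transcription factor gene Sox18 (0.62). Of the 4 adhesion genes of activated endothelium tested, 3 rose. P-selectin (Selp) ranged from 0.99 to 3.68 TPM in control and from 5.05 to 14.94 TPM in UVB rats, a log2 fold change of 1.46 (adjusted p = 1.62e-05 from limma). E-selectin (Sele) ranged from 1.94 to 4.62 TPM and from 5.14 to 14.75 TPM, with 1.30 (adjusted p = 7.74e-06), and Icam1 had 0.75 (adjusted p = 7.54e-06). Both selectins had larger values than Nos3 and Stc1 on this scale.

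In the nitric oxide pathway, 1 of 12 genes rose and 2 fell. Nos2, the inducible nitric oxide synthase, ranged from 3.7 to 12.87 TPM in control and from 1.06 to 3.08 TPM in UVB rats, without overlap, a log2 fold change of -1.40 (adjusted p = 1.36e-05 from limma). Nos3 and Nos2 thus moved in opposite directions after UVB. Of the arginases, which compete with the synthases for arginine, Arg1 fell (-0.67, adjusted p = 0.000747) and Arg2 rose (0.58, adjusted p = 0.00297). Within genotypes Arg2 was called in WT rats (0.67, adjusted p = 0.0364 from limma) but not in P1.hMR rats.

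Among the partners of the members, the other VEGF ligands and receptors had 0 of 6 genes called (5 above 0), with Nrp2 at -0.08 and Vegfb at 0.05 on the log2 scale. Angpt1, the Tie2 agonist, fell (-0.77, adjusted p = 0.000463 from limma), the 1 of 4 angiopoietin and apelin partners called, ranging from 2.15 to 4.86 TPM in control and from 1.04 to 1.84 TPM in UVB rats. Of 7 tip cell genes, Plaur, the urokinase receptor gene, was the 1 called (0.82, adjusted p = 1.59e-05). Of 15 hypoxia response genes, 0 rose and 1 fell, Egln3, a prolyl hydroxylase of HIF (-0.51, adjusted p = 1.06e-06). Egln3 lost the call in 5 of 17 fits with 1 rat left out, those without Control WT rat 2 or 3, Control P1.hMR rat 3 or UVB P1.hMR rat 1 or 5, with -0.49 at the smallest. With no fold change threshold 11 of the 15 passed, beside 47.2% of all genes, and 5 of the 15 lay above 0. Within P1.hMR rats 1 hypoxia gene was called higher and 2 lower. There 5.05% of all genes were called higher and 10.8% in either direction. Within WT rats 0 were called higher and 3 lower, beside 3.92% of all genes higher and 7.91% in either direction. The gene called higher was Ldha, lactate dehydrogenase A (0.56, adjusted p = 6.36e-05 from limma). Some genes of this list are named after their values were seen. Ldha and the glycolysis and glucose transport genes Pgk1 and Slc2a1 lay above all control rats in all 8 UVB rats. Their mean TPM was 1.41, 1.29 and 1.27 times that of the controls. Egln3, Mxi1 and Epas1 lay below all control rats in all 8 UVB rats, at 0.69, 0.74 and 0.80 times. Of all genes tested, 5.51% lay above all control rats in this way, and 698 of 13105 lay below.

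Of the angiogenesis inhibitors, 2 of 8 rose, Thbs2 or thrombospondin-2 (0.90) and Col18a1, the source of endostatin (0.59), and Timp3, a metalloproteinase inhibitor, fell (-0.68). Of 5 lymphatic genes, Pdpn or podoplanin, which keratinocytes and fibroblasts also express, rose (1.32). Of 11 mural cell genes, Pdgfrb, the pericyte receptor, rose (0.55) and Myh11, smooth muscle myosin, fell (-0.53). Without UVB WT rat 1, Pdgfrb was at 0.50 and not called. Without Control WT rat 2, Control P1.hMR rat 4 or UVB WT rat 3, and with skeletal muscle genes as a covariate (-0.47), Myh11 was not called.

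**Figure D4:**
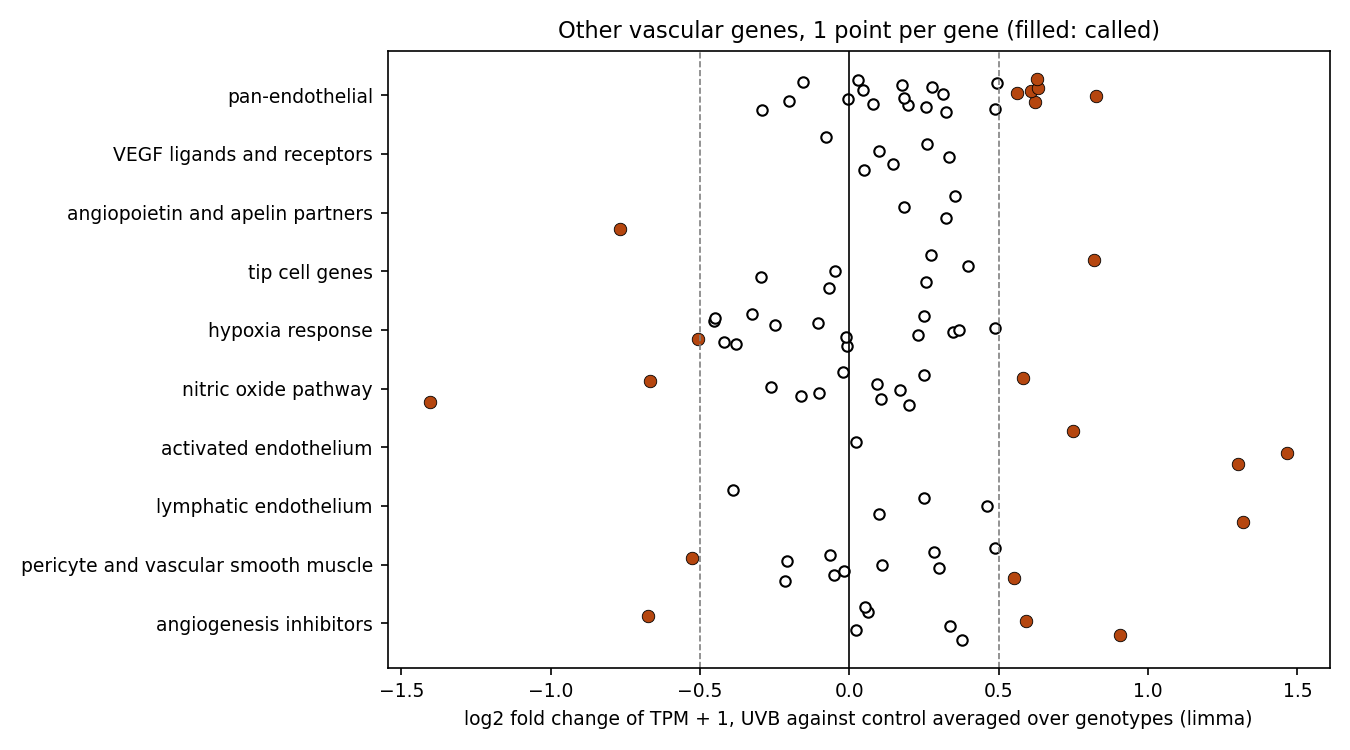
Averaged log2 fold change of TPM + 1 after UVB (horizontal axis, limma) for each tested gene of 10 vascular lists, filled where called, with dashed lines at 0.5 and -0.5. Selp lies farthest to the right, followed by Pdpn and Sele, and Nos2 lies farthest to the left.

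Markers of other cells moved with UVB as well, and their part in the member values was not tested beyond the covariate fits for muscle and hair keratin. Meibocyte genes summed to between 41415 and 50791 TPM in control and between 36957 and 45128 TPM in UVB rats, with Awat2 called lower (-0.59) and Elovl3 higher (0.66) of 8. With quantile normalization Awat2 was at -0.38 and not called. Of the fibroblast genes, 3 of 4 rose (Lum 1.89, Dcn 0.90, Pdgfra 0.78) and Col1a1 fell (-0.68). Of the macrophage genes, C1qb (1.30), C1qc (1.03) and C1qa (0.89) rose, 3 of 6. The other 3 went the other way and were not called. The mean TPM of Cd68, Adgre1 and Csf1r after UVB was 0.79, 0.89 and 0.96 times that of the controls. Of 5 platelet genes Pf4 was the 1 tested, and it rose (1.98). The others reached 1 TPM in no rat and went either way. Their mean TPM after UVB was 0.78 (Gp1ba), 0.82 (Itga2b), 1.59 (Gp9) and 4.79 (Ppbp) times that of the controls. Of the red blood cell genes Slc4a1 was at 0.03 and Alas2 at 0.10, 0 of 2 called. Of 7 hair keratin genes 6 fell (Krt34 -0.97, Krt86 -0.88, Krt31 -0.82, Krt81 -0.80). Ckm of muscle fell (-0.60, not called without UVB WT rat 3), 1 of 6, and of 4 adipocyte genes Cidec (-0.84) and Plin1 (-0.64, not called without Control WT rat 2) fell. Of 7 epidermal genes Sprr1b rose (3.91) and Ivl fell (-1.31).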

How the data were processed

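The authors deposited TPM for each rat, written with 2 decimals. Per the study's methods, reads were aligned to rn7 with STAR and quantified with RSEM, while the submitters' processing notes name FastQC, Trimmomatic, DRAGEN and Picard. TPM keeps no counts, so depth is unknown and precision comes from the spread between rats. The columns summed to between 804378 and 840817 TPM, and 12372 to 12737 genes per rat reached 1 TPM.

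Values were analysed as log2(TPM + 1) in R 4.3.3 with limma 3.58.1, fitting 4 group means and a variance trend, and p-values adjusted by Benjamini-Hochberg over all 13105 genes. Call thresholds follow the study's methods, whose own test needs counts. Exact tests and figures used Python 3.11.15, scipy 1.17.1 and matplotlib 3.10.9. The model was also run on simulated data with independent normal noise for each gene and rat. Such data hold no shared litters and no floor at low TPM, so they do not test these. The labels do not say whether rats of a group shared a litter, so p-values measure the spread between these rats.

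The members and the gene lists were chosen with earlier results of these data known. Named were all members, up to 4 called genes of each list with the largest change (2 of the highest TPM where none was called), and the 5 genes most like Nos3, of which 1 is not reported here. Alternatives were another pseudocount, filters, scalings, fits of only the groups compared, no trend, sample weights, a replicate block, covariates, fold thresholds, a median index and each rat left out in turn.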

Additional observations from a re-analysis of the deposited data

How the results depend on the processing

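Depth is unknown, so calls rest on the spread between 3 to 5 rats per group, and low members such as Apln cannot be resolved further. Nos3 and Stc1 stayed called in both genotypes and in the average in each of 17 fits with 1 rat left out. The number of members called in UVB WT, UVB P1.hMR and the average was 0 in each with a mean of at least 5 TPM, which left both genes untested, and 0 in each at a log2 fold threshold of 1. With no fold change threshold it was 5, 5 and 8, and with hair keratin genes as a covariate 1 in UVB WT (Stc1) and 3 in UVB P1.hMR rats (with Vegfa lower). The pan-endothelial count of 6 of 22 became 16 with no fold change threshold, where 47.2% of all genes passed. It became 0 at the threshold of 1. With the median of the list as index, r of Nos3 in UVB rats was 0.43 (exact permutation p = 0.301). With 1 rat left out, r ran from 0.48 to 0.86 in control and from 0.52 to 0.89 in UVB rats.

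Deviations of same-numbered rats were weakly related (22 pairs, r from -0.19 to 0.24, 4 over 0.1). Between Control WT and Control P1.hMR rats 1 to 4, r was 0.19, 0.04, 0.12 and 0.24. Rats of different numbers were not compared, so this check cannot decide whether the numbers pair the rats. With a replicate block, 2 members were called in UVB WT, UVB P1.hMR and the average, as without it, and the block changed no call of a named gene.

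Reversals concerned values near 0 that were not called, apart from hair keratins under their own covariate. Nos3 in P1.hMR against WT under UVB was -0.0025 with a pseudocount of 0.1, -0.068 with the replicate block and -0.013 with the muscle covariate, and ran from -0.090 to 0.097 with 1 rat left out. Angpt2 there was 0.0079 with median-of-ratios scaling, 0.011 with sample weights and 0.032 with the hair keratin covariate, and ran from -0.059 to 0.036, Kdr from -0.14 to 0.062 and Tek from -0.044 to 0.16. Tek without UVB ran from -0.082 to 0.033 and its interaction from -0.036 to 0.17. Apln in UVB P1.hMR rats was -0.033 with the hair keratin covariate and ran from -0.022 to 0.078. With that covariate Alas2 was -0.056, Krt81 0.11 and Krt86 0.048. Slc4a1 was -0.0036 with the replicate block and -0.037 with the muscle covariate, and ran from -0.077 to 0.10. The causes were not tested. Fits of only the groups compared do not apply to the interaction and the average.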
